A study of Mus musculus with 18 samples.

Results

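The 10 genes described here are transcriptional targets and pathway components of YAP and TAZ, chosen by gene symbol out of 18909 genes in the deposited table and followed through all 6 groups of the study. They are the secreted matricellular proteins Cyr61 (Ccn1) and Ctgf (Ccn2), the ankyrin-repeat cofactor Ankrd1, the angiomotin-like scaffolds Amotl1 and Amotl2, the receptor tyrosine kinase Axl, the membrane-repair protein Myof, the kinase Lats2, the coactivator Yap1 and its DNA-binding partner Tead1. RNA was sequenced from 18 libraries of 2 cultured mouse tumour lines of C57BL6 origin, B16F10 melanoma and E0771 mammary tumour, with 3 replicates in each group. Each line carried either the empty pRetrox vector (the control), MRTFA or MRTFB, and every group, controls included, received doxycycline at 500 ng/mL for 48 hours, the agent that switches on the transgene. The sources used here do not give whether a line was a clone or a pool, or whether replicates were separate cultures, so p-values measure only the spread between these libraries, which may be technical.

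YAP and TAZ (Wwtr1) are coactivators that do not bind DNA themselves and act mainly through TEAD factors. The Hippo kinases Lats1 and Lats2 phosphorylate them and hold them out of the nucleus, and angiomotins bind them in the cytoplasm, so Lats2 and Amotl2 are at once regulators and targets. MRTFA and MRTFB are coactivators of the serum response factor SRF that are released when monomeric actin is used up, and Cyr61, Ctgf and Ankrd1 have been described as targets of both routes. The study asked which genes are induced when MRTFA or MRTFB is overexpressed in these lines.

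Promoter sequence (RefSeq, GRCm38.p6) was matched for 8 of the 10 genes, all but Ctgf and Tead1, which were not searched. It covered 9 windows, each from 250 bases before to 50 after the RefSeq start. Each was searched on both strands for GGAATG (the core of the TEAD site, CATTCC on the other strand), TGANTCA (the AP-1 site) and the CArG box of SRF. GGAATG was found for 6 of the 8 genes. By window it was found in 6 of the 9, beside 14.7% of all 32851 windows of the same length. TGANTCA and the CArG box were found for 0 of 8, and in 7.81% and 1.63% of all windows. Cyr61, Ankrd1 and Amotl2 are shown because the motif lies before their start and their RNA was higher with MRTFA in E0771. The bases before the start are printed 5′ to 3′ on the gene's strand, with GGAATG or CATTCC in capitals: chr3:145649986-145650235 (minus strand) for Cyr61, chr19:36119845-36120094 (minus strand) for Ankrd1 and chr9:102717554-102717803 (plus strand) for Amotl2.
Cyr61: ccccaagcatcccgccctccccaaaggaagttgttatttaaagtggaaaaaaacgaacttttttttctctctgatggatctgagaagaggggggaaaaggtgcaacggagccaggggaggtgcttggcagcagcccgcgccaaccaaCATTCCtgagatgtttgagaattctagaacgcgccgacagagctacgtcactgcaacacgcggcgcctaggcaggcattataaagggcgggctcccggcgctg
Ankrd1: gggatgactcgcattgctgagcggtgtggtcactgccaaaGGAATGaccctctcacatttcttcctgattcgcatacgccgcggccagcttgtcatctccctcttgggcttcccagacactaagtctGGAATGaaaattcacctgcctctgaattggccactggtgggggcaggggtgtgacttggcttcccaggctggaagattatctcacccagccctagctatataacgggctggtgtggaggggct
Amotl2: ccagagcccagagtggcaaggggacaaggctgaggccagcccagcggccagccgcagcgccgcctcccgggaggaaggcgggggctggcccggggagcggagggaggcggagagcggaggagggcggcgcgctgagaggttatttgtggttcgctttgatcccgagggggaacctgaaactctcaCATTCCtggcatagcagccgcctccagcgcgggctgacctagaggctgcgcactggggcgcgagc
The RefSeq starts used here can differ from the gene coordinates given below, which are from GENCODE M21. By those coordinates the printed stretches of Ankrd1 and Amotl2 lie inside the gene, and that of Cyr61 lies before it. The windows of Amotl1 and Lats2 lie inside the gene as well. Counted from the RefSeq start, the motif lies at -103 to -98 in Cyr61 and at -65 to -60 in Amotl2. In Ankrd1 it lies at -210 to -205 and -123 to -118. The other searched motifs had no match in these windows, so no overlap was possible. Axl holds 1 copy from -233, Yap1 holds 1 from -141 and Lats2 holds 1 at 5 to 10 after the start. A match is a description of these letters only.

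Libraries held 27607055 to 37116655 reads. Values are scaled reads, that is, reads divided by the library's size factor. The line labels fit the melanocyte markers: the 7 of them summed to 561637 to 757748 scaled reads in B16F10 and 369 to 636 in E0771. Of 6 mammary epithelial markers 5 were listed. These summed to 5820 to 7901 in E0771 controls, 14987 to 17027 with MRTFA and 6013 to 9283 with MRTFB. Krt8 made up most of it (means of 6720 in controls and 15549 with MRTFA), Krt7 went from 87.5 to 330, and Cdh1 and Krt19 were near 0 in controls (4.57 and 0.31). In B16F10 the same markers summed to 33.4 to 77.0 in controls, 96.2 to 156 with MRTFA and 18.1 to 51.1 with MRTFB. Krt7 went from 2.89 to 57.4 with MRTFA there. Cdh1 went the other way between the lines. It made up most of the sum in B16F10 controls, at a mean of 56.0, against 4.57 in E0771 controls. The part of these markers in the results was not tested. Of 5 immune markers 4 were at 0 or not listed in every group. The immune markers summed to at most 10.5 in any library. Of 4 endothelial markers 2 were listed, and these summed to at most 26.5. Of 4 fibroblast markers 3 were listed. These summed to 466 to 1081 in B16F10, to 1874 to 2023 in E0771 controls and to 1479 to 1656 in E0771 with MRTFA. Almost all of it was Pdgfra and Pdgfrb, and their part in the results was not tested. The RNA of the introduced factors was read as Mkl1 (MRTFA) and Mkl2 (MRTFB). With MRTFA in E0771, Mkl1 rose from 1349 ± 202 to 13728 ± 2454 (SD, n = 3; log2 change 3.34, limma adjusted p = 4.68e-07). With MRTFB in E0771, Mkl2 went from 1344 ± 106 to 2158 ± 87.9 (0.68, adjusted p = 0.0306), and this call was lost without any 1 of the 6 libraries (adjusted p 0.0591 to 0.194). In B16F10 neither was called: Mkl1 changed by 0.22 in the libraries labelled MRTFA (adjusted p = 0.856) and Mkl2 by 0.35 in those labelled MRTFB (adjusted p = 0.503). At an unadjusted limma p under 0.05 there were 0 of the 2 with MRTFA (9.41% of all genes) and 1 with MRTFB (8.87%). Mkl2 had 1290, 1333 and 1881 scaled reads in the B16F10 controls and 1964, 1738 and 1955 with MRTFB, with overlap. The B16F10 groups are therefore named by their labels only. In bulk RNA, fewer cells that express a gene and less RNA per cell cannot be told apart.

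**Figure D1:**
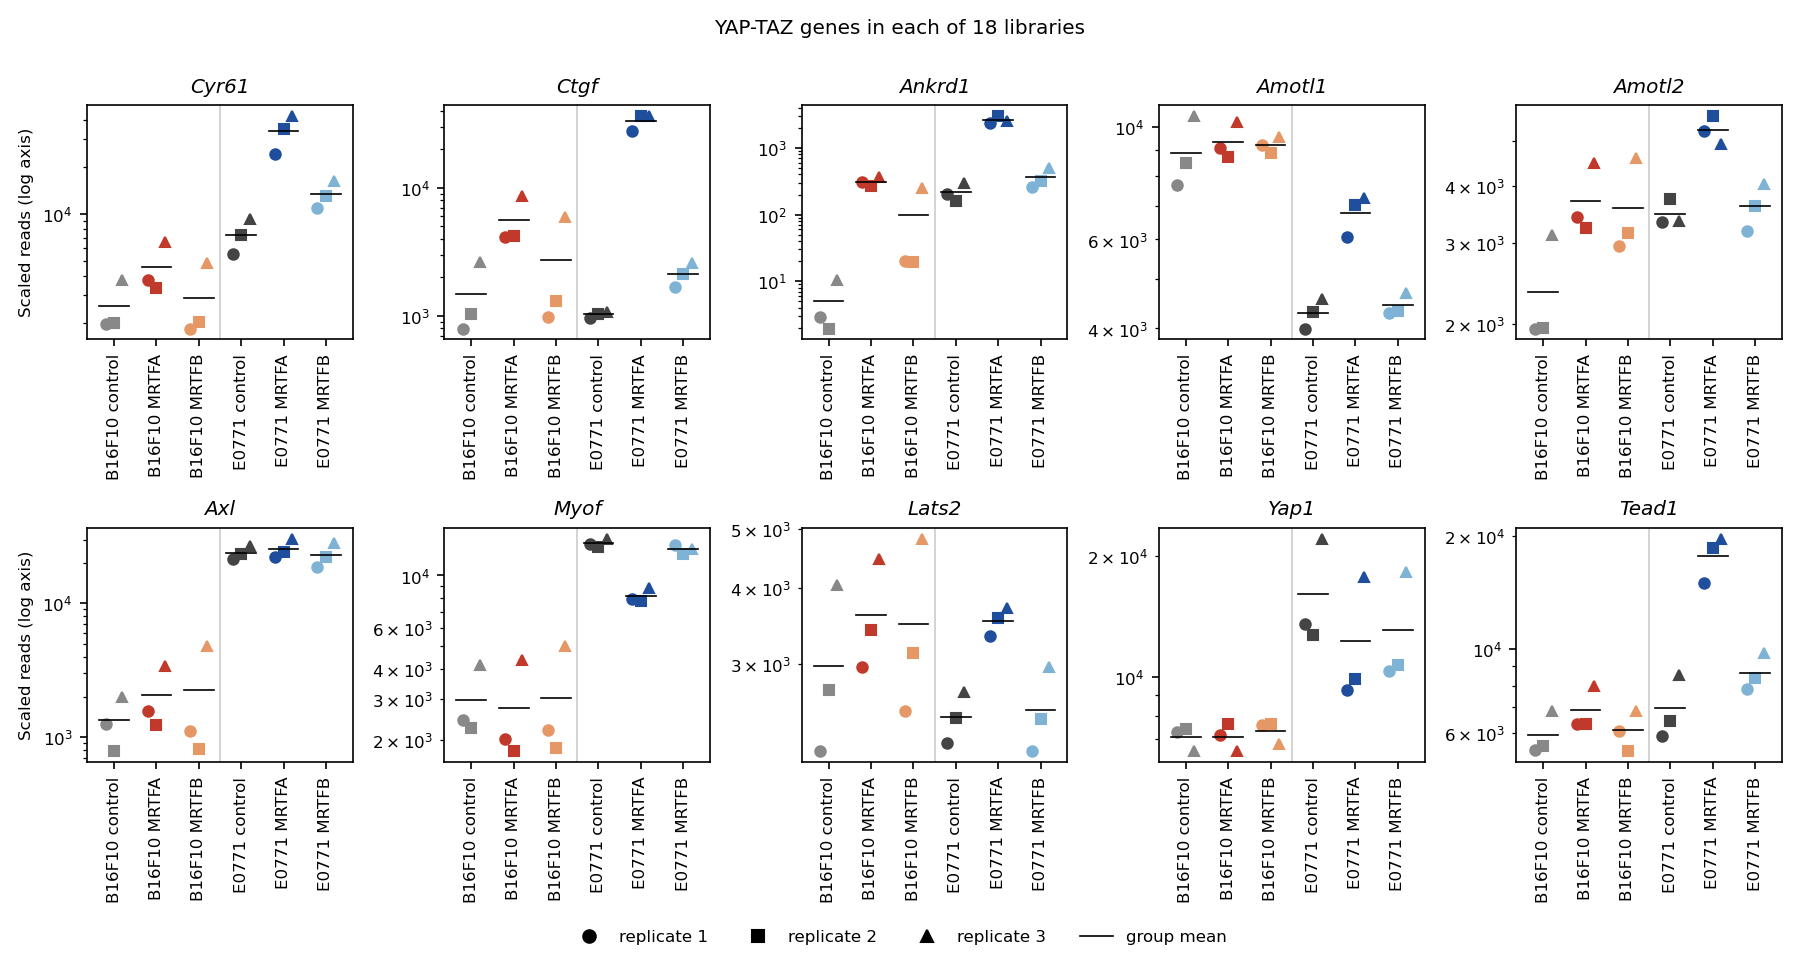
Scaled reads (log axis) of the 10 genes in the 18 libraries, by group; circles, squares and triangles are replicates 1, 2 and 3 and lines are group means. Ctgf with MRTFA in E0771 sits between 27576 and 36482, all above the E0771 controls at 965 to 1082, and in B16F10 the triangle is the highest of its group for every gene except Yap1.

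MRTFA in E0771 gave the largest set of changes. Of the 10 genes, 7 were higher and 1 lower than control (limma, Benjamini-Hochberg adjusted p under 0.05). Over all 13189 genes tested, 38.4% were called, 20.3% higher and 18.1% lower (2677 and 2387 genes, which became 2453 and 3025 under upper-quartile scaling). By level, 24.2% of all genes had every MRTFA library above every control and 25.9% had every one below, against 7 and 1 of these 10 genes. The median log2 change was 0.63 for the 10 genes and -0.02 for all genes. Ctgf, Ankrd1, Cyr61 and Tead1 changed most, the angiomotins and Lats2 rose by about a factor of 1.44 to 1.58, Myof fell, and Axl and Yap1 did not pass.

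Ctgf (chromosome 10, 24595442 to 24598683, plus strand, GRCm38) encodes a secreted protein that binds matrix and growth factors. Its scaled reads were 965, 1036 and 1082 in the E0771 controls, 27576, 36449 and 36482 with MRTFA, and 1677, 2146 and 2589 with MRTFB. The 3 groups did not overlap, and the controls were the tightest of the 6 groups of this gene. The rise with MRTFA was 32.3-fold (95% interval 25.4 to 41.1; log2 5.01, SE 0.16, limma adjusted p = 9.41e-09). Cyr61 (chromosome 3, 145646976 to 145649981, minus strand), a related matricellular protein, stood at 5498, 7293 and 9250 in controls, 24356, 35057 and 42462 with MRTFA and 10928, 13091 and 16319 with MRTFB. These groups did not overlap either. Its rise with MRTFA was 4.61-fold (3.22 to 6.59; log2 2.20, SE 0.23, limma adjusted p = 3.79e-05). Ankrd1 (chromosome 19, 36111961 to 36120099, minus strand), best known in stressed heart and muscle, was at 202, 159 and 301 in controls, 2372, 3018 and 2508 with MRTFA, and 262, 324 and 508 with MRTFB. The MRTFA libraries were well above both other groups, which overlapped. The log2 change with MRTFA was 3.61 (SE 0.27, limma adjusted p = 2.81e-06), a factor of 12.2.

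The regulators among the targets moved less. Amotl1 (chromosome 9, 14541966 to 14645056, minus strand) had 3995, 4312 and 4585 scaled reads in E0771 controls and 6080, 7009 and 7249 with MRTFA, a log2 change of 0.66 (limma adjusted p = 0.000275). Amotl2 (chromosome 9, 102716672 to 102733418, plus strand) had 3340, 3743 and 3348 in controls and 5267, 5669 and 4913 with MRTFA, a change of 0.60 (adjusted p = 0.000968). Lats2 (chromosome 14, 57689662 to 57758388, minus strand), the kinase that restrains YAP, had 2225, 2444 and 2692 against 3335, 3566 and 3709, a change of 0.53 (adjusted p = 0.006). In each of these 3 genes every MRTFA library lay above every control.

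Tead1 (chromosome 7, 112679318 to 112906807, plus strand), the DNA-binding partner, went from 5874, 6431 and 8556 in E0771 controls to 14960, 18511 and 19660 with MRTFA. The groups did not overlap, and the change was 2.56-fold (2.03 to 3.24; log2 1.36, limma adjusted p = 5.75e-05). Yap1 (chromosome 9, 7931999 to 8004596, minus strand) was at 13513, 12727 and 22134 in controls and at 9247, 9891 and 17735 with MRTFA. Replicate 3 was the highest library of both groups. The groups overlapped through MRTFA replicate 3, which lay above control replicates 1 and 2. Its log2 change was -0.41 (95% interval -1.07 to 0.25, limma adjusted p = 0.311). Yap1 stood at 0.68, 0.78 and 0.80 times the control of the same number (blocked limma adjusted p = 0.00135), but these numbers did not pass the pairing check. Leaving out replicate 3 in every group, a choice made after seeing the data, gave -0.46 (adjusted p = 0.0117) and 9 of the 10 genes called, beside 31.6% of all genes.

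Myof and Axl did not follow the other targets. Myof (chromosome 19, 37899036 to 38043577, minus strand) fell from 13618, 13228 and 14339 to 7975, 7798 and 8817 with MRTFA in E0771. Every MRTFA library was below every control, and the change was -0.75 (SE 0.08, limma adjusted p = 3.64e-05). Axl (chromosome 7, 25757273 to 25788705, minus strand), a receptor for Gas6, was at 21382, 23211 and 26973 in controls and at 22231, 24268 and 30531 with MRTFA. These groups overlapped; the change was 0.10 (95% interval -0.27 to 0.47, adjusted p = 0.67).

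**Figure D2:**
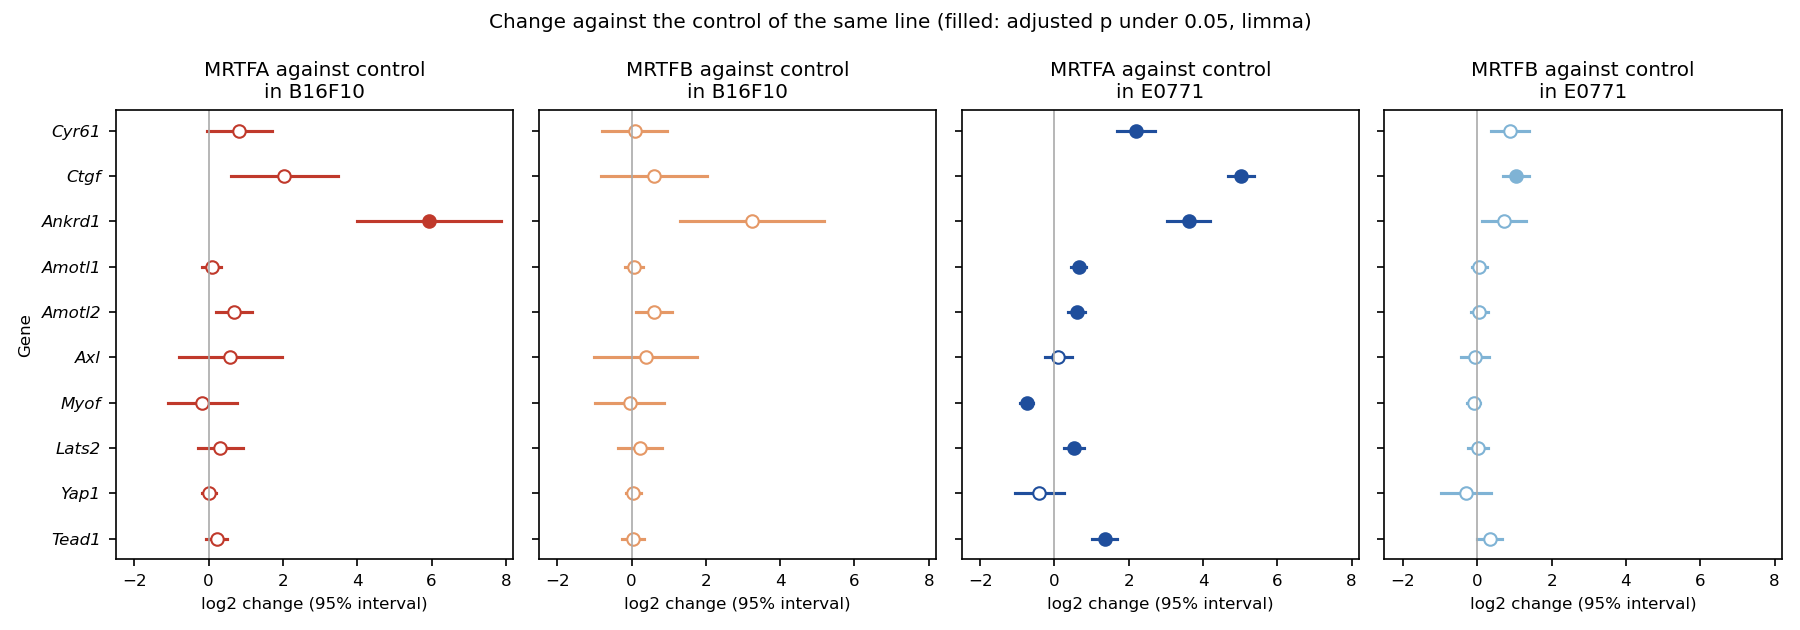
Log2 change of each gene against the control of its own line (points, with 95% intervals); filled points had a limma adjusted p under 0.05. In E0771 with MRTFA 8 of 10 points are filled, from Ctgf at 5.01 to Myof at -0.75, while Ankrd1 in B16F10 with MRTFA and Ctgf in E0771 with MRTFB are the filled points elsewhere.

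With MRTFB in E0771 Ctgf alone was called, 1 of the 10 genes, beside 0.144% of all genes tested, 0.136% higher. Its rise was 2.05-fold (1.61 to 2.61; log2 1.03, limma adjusted p = 0.038), and the call held without MRTFB replicate 1 but not without any 1 of the other 5 libraries (adjusted p 0.0877 to 0.201) or by edgeR on the reads (0.0535), which called 0 of the 10 and 0.0986% of all genes. Ctgf and Cyr61 were the 2 genes with every MRTFB library above every control, beside 3.04% of all genes. Cyr61 stood at 0.88 (SE 0.23, adjusted p = 0.561). The replicate numbers were taken to pair these libraries, from a check on the same data (correlations of 0.525 to 0.588). Blocked by number, 0.25% of all genes and 2 of the 10 were called, Ctgf (limma adjusted p = 0.00261) and Cyr61 (0.00244). That fit also blocked the MRTFA libraries of E0771, whose lowest correlation with control was 0.079. Ankrd1 stood at 0.71 (95% interval 0.13 to 1.30, adjusted p = 1, blocked 0.44). The other 7 genes had values between -0.30 (Yap1) and 0.33 (Tead1), and none of them was called with or without the block. MRTFA and MRTFB are compared with the same 3 control libraries in each line.

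Set directly against each other in E0771, MRTFB libraries were lower than MRTFA libraries in 7 of the 10 genes and higher in 1, Myof. Over all genes 33.6% were called, 14.5% higher and 19.1% lower (43.8%, 20.6% and 23.2% with the block, which left the 10 calls as they were). Upper-quartile scaling turned that balance, from 1916 higher and 2514 lower to 2642 and 2283, and left the 10 calls too. The difference was -3.98 for Ctgf (limma adjusted p = 6.62e-08), -2.90 for Ankrd1 (1.53e-05), -1.32 for Cyr61 (0.00157) and -1.03 for Tead1 (0.000475). Amotl1, Amotl2 and Lats2 were lower by 0.50 to 0.61 on the log2 scale, and Myof was higher by 0.65. Axl and Yap1 did not pass (adjusted p = 0.487 and 0.819). The RNA of the 2 introduced factors differed as well, since Mkl1 had risen by 3.34 and Mkl2 by 0.68, so a difference between the factors and a difference in their amount cannot be told apart.

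In B16F10 the same leading targets stood higher in the libraries labelled MRTFA, but the spread within groups was wide. Ankrd1 had 2.89, 1.95 and 10.5 scaled reads in the controls, 305, 265 and 364 in the MRTFA libraries, and 20, 19.7 and 255 in the MRTFB libraries. The 3 groups did not overlap, and the controls rest on 16 reads in all. Ankrd1 was the 1 gene of the 10 called with MRTFA, beside 1.55% of all genes, 1.34% higher (log2 5.93, SE 0.87, limma adjusted p = 0.00559). The call was lost without MRTFA replicate 1 (5.94, adjusted p = 0.0723) or 2 (6.04, adjusted p = 0.0559). Ctgf had 796, 1037 and 2653 in controls and 4123, 4229 and 8625 with MRTFA, without overlap (2.03, SE 0.65, adjusted p = 0.258). Cyr61 had 1979, 1998 and 3758 in controls and 3745, 3345 and 6604 with MRTFA, where the highest control lay above the 2 lower MRTFA libraries (0.83, adjusted p = 0.583). Amotl2 had 1958, 1964 and 3131 in controls and 3417, 3238 and 4473 with MRTFA, without overlap (0.68, adjusted p = 0.262). It was called without control replicate 3 (0.90, adjusted p = 0.0442). With Ankrd1 and Ctgf, Amotl2 made 3 genes whose MRTFA libraries all lay above the controls, beside 6.83% of all genes.

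Compared within replicate number, Ankrd1, Ctgf, Cyr61 and Amotl2 were higher in all 3 pairs of MRTFA and control. So were Axl, Lats2 and Tead1, while Amotl1, Myof and Yap1 were not. The share of all genes higher in all 3 pairs was not computed, so whether these genes stand out by this measure is not known. The ratios for replicates 1, 2 and 3 were 5.18, 4.08 and 3.25 for Ctgf. They were 1.89, 1.67 and 1.76 for Cyr61 and 1.75, 1.65 and 1.43 for Amotl2. The pairing check held for every comparison within B16F10, and with the replicate number as a block 5 of the 10 genes were called with MRTFA, beside 6.33% of all genes, 3.98% higher. These were Ankrd1 (limma adjusted p = 6.9e-05), Amotl2 (0.000125), Ctgf (0.000243), Cyr61 (0.000433) and Lats2 (0.0246, log2 0.31). Without replicate 3 in every group, 4 of the 10 and 1.67% of all genes were called: the same set without Lats2 (0.39, adjusted p = 0.32). Tead1 (0.21), Amotl1 (0.08), Yap1 (0.0024), Axl (0.58) and Myof (-0.17) were called in neither of the 2. The 95% interval for Yap1 was -0.19 to 0.19.

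With MRTFB in B16F10 0 of the 10 genes were called by limma, beside 0.126% of all genes. At an unadjusted p under 0.05 there were 2, Ankrd1 and Amotl2, beside 8.87% of all genes; edgeR called 0 (0.118% of all genes) and DESeq2 called 1, Ankrd1 (1.32% of all genes). Ankrd1 was also the 1 gene with every MRTFB library above every control, beside 6.38% of all genes. With the block 4.46% of all genes and these 2 of the 10 were called: Ankrd1 at 3.24 (adjusted p = 0.00904) and Amotl2 at 0.61 (0.00174). Amotl2 had 2962, 3154 and 4601 scaled reads with MRTFB, 1.51, 1.61 and 1.47 times the control of the same number. Ctgf (983, 1310 and 5971) and Cyr61 (1835, 2015 and 4838) overlapped their controls, at 0.60 and 0.09. Ankrd1 at 255 in MRTFB replicate 3 was over 10 times the other 2 libraries of its group, and without replicate 3 in every group it stood at 2.62 (adjusted p = 0.00468) and was called with Amotl2, beside 1.71% of all genes.

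Between the 2 factors in B16F10, 0 of the 10 genes were called, beside 1.09% of all genes; 1 had an unadjusted p under 0.05 (4.34% of all genes did) and edgeR called 0 (0.977% of all genes). With the block 2.66% of all genes were called, 2.56% lower, and MRTFB was lower than MRTFA in Ankrd1 (-2.69, adjusted p = 0.0163), Ctgf (-1.43, 0.00338) and Cyr61 (-0.74, 0.00129). Leaving out replicate 3 in every group called the same 3, beside 0.64% of all genes. Without MRTFB replicate 3 alone, Ankrd1 was called at -3.89 (adjusted p = 0.00243). Amotl2 was at -0.07 (95% interval -0.55 to 0.42), with means of 3709 (MRTFA) and 3573 (MRTFB).

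Replicate 3 stood apart in these genes in all 3 B16F10 groups. Of the 10 genes, 9 were highest in replicate 3 of every group and the tenth, Yap1, was lowest in replicate 3 of every group. Over the 13517 genes tested, 14.3% were highest and 15.9% lowest in replicate 3 throughout. Replicate 3 exceeded the mean of replicates 1 and 2 by 1.91 on the log2 scale for Ankrd1, 1.66 for Ctgf, 1.55 for Axl, 1.11 for Myof and 1.05 for Cyr61, as means over the 3 groups. Lats2 (0.67), Amotl2 (0.56), Tead1 (0.31) and Amotl1 (0.22) were smaller, and Yap1 was at -0.17. Axl shows it in single libraries: 1250, 781 and 2004 in controls, 1574, 1222 and 3414 with MRTFA, and 1103, 815 and 4812 with MRTFB. The median over the 10 genes was 0.86, and over all genes -0.01.

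In E0771, 7 of the 10 genes were highest in replicate 3 of all 3 groups, beside 11.8% of all genes. The largest difference was in Yap1 itself, at 0.81, a factor of 1.76, the reverse of its place in B16F10. Cyr61 (0.51), Axl (0.39), Tead1 (0.33), Ctgf (0.25), Lats2 (0.23) and Amotl1 (0.14) were the other 6, and Ankrd1, Amotl2 and Myof were mixed. What a replicate number marks is not in the labels. Nothing in this comparison is a test, since it was chosen after the values were seen.

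**Figure D3:**
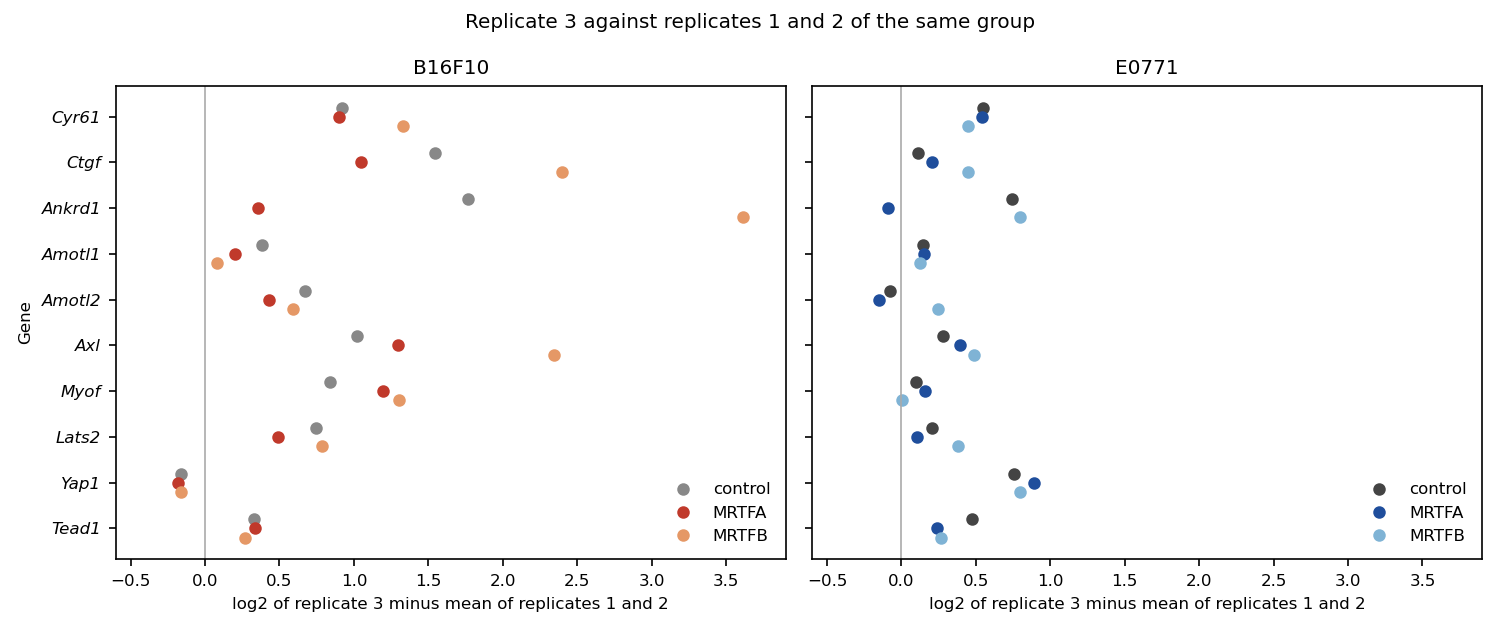
Log2 of replicate 3 minus the mean of replicates 1 and 2 of the same group, for each gene and group; points are the control, MRTFA and MRTFB groups of each line. In B16F10 all 3 points lie above 0 for 9 genes and below 0 for Yap1, and in E0771 the Yap1 points are near 0.8.

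The controls of the 2 lines were compared directly. In the E0771 controls 6 of the 10 were higher than in the B16F10 controls and 1 was lower, beside 70.2% of all 14859 genes called, 33.4% higher and 36.8% lower, so the share that differed was close to that of all genes. Upper-quartile scaling turned the balance over all genes from 4963 higher and 5467 lower to 5351 and 5119. Axl was 19.0-fold higher (log2 4.25, limma adjusted p = 9.99e-07) and Ankrd1 at 5.40 (3.09e-06), Ankrd1 from those 16 reads. Myof was higher by 2.27 (1.06e-05), Cyr61 by 1.55 (0.00102), Yap1 by 1.15 (0.000495) and Amotl2 by 0.60 (0.00782). Amotl1 was lower, at -1.04 (1.1e-07). Ctgf (-0.34, adjusted p = 0.581), Lats2 (-0.23, 0.383) and Tead1 (0.22, 0.21) did not pass.

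Levels of different genes were compared as scaled reads per kb of merged exons. In the E0771 controls Axl was highest at 4740 ± 566 (SD, n = 3), followed, with overlapping libraries, by Cyr61 at 3639 ± 929, and then by Yap1 at 1742 ± 564. Ctgf was at 359 ± 20.7 there, eighth of 10, close to Lats2 at 352 ± 33.5. With MRTFA, Ctgf reached 11710 ± 1794 and was second to Cyr61 at 16820 ± 4509, and the libraries of the 2 overlapped. In the B16F10 controls Cyr61 led at 1277 ± 506, followed by Amotl1 at 886 ± 146 and Yap1 at 764 ± 49.6, each overlapping the next, and Ankrd1 was last at 1.77 ± 1.63. Tead1 was sixth in E0771 controls at 512 ± 104 and at 1305 ± 181 with MRTFA. Part of this order depends on the length used. Per kb of the longest transcript, Yap1 (1338) stood above Cyr61 (1277) and Amotl1 (995) in the B16F10 controls. In the E0771 controls Ctgf (413) then stood below Lats2 (473) and Amotl1 (480), ninth of 10.

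The response to MRTFA differed between lines for 3 of the 10 genes in a test of the difference itself, and these 3 were larger in E0771. Over all genes 21.1% differed, 12.6% with the higher log2 change, sign included, in E0771 and 8.55% with the lower one there. These were 1867 and 1271 genes, which became 1669 and 1786 under upper-quartile scaling. The excess in E0771 was 2.98 for Ctgf (limma adjusted p = 0.00899), 1.15 for Tead1 (0.00124) and 0.58 for Amotl1 (0.0107). Cyr61 was at 1.38 (adjusted p = 0.0639) and passed without B16F10 MRTFA replicate 3 (1.68, 0.0285). Ankrd1 was at -2.32 (0.115), with its larger change in B16F10 from a far lower start. Without replicate 3 in every group 7 were called, beside 18.1% of all genes: these 3 with Cyr61 (1.37), Ankrd1 (-2.51), Myof (-0.47, adjusted p = 0.0497) and Yap1 (-0.46). Myof and Yap1 then stood at -0.77 and -0.46 with MRTFA in E0771 and at -0.29 and 0.0074 in B16F10, so their larger change was in E0771. Since the Mkl1 RNA itself rose by 3.12 more in E0771, a difference between the lines and a difference in the amount of factor cannot be told apart.

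For MRTFB the response differed between lines for 0 of the 10 genes by limma, beside 0.114% of all genes. At an unadjusted p under 0.05 there were 2, Ankrd1 and Amotl2, beside 5.46% of all genes, and edgeR called 0 (0.108% of all genes). With the block, 0.545% of all genes and 1 of the 10, Cyr61 (0.80 larger in E0771, adjusted p = 0.0208), were called. Without replicate 3 in every group the 1 called was Ankrd1 (-1.93, adjusted p = 0.0443), beside 0.362% of all genes.

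Other genes of the route were taken from 2 lists chosen by function, 15 further YAP-TAZ targets of a published cancer signature and 24 Hippo components. With MRTFA in E0771, 9 of the 11 tested targets were called, 7 higher and 2 lower, with a median log2 change of 0.79, beside 38.4% of all genes called and a median of -0.02. The transmembrane protein Crim1 stood at 1.63 (limma adjusted p = 0.000103), the growth factor Tgfb2 at 1.45, tissue factor F3 at 0.997 and the Rac activator Dock5 at 0.79. The matrix protein Ccdc80 was at 2.24 from only 14 reads in the controls, and the nucleotidase Nt5e fell by 0.81 on the log2 scale. Of the Hippo components 9 of 22 were called, 6 higher and 3 lower, with a median of 0.09, a share near the 38.4% of all genes. Without MRTFA replicate 2 there were 5. Among TEAD partners and coactivators Tead3 (1.48), Tead2 (0.85) and TAZ itself, Wwtr1 (0.58), rose beside Tead1, and Tead4 was at -0.0048 (95% interval -0.21 to 0.20).

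Among the kinases and adaptors 2 of 10 rose and 1 fell, the Hippo kinase adaptor Sav1, by 0.43 on the log2 scale, a share below that of all genes (38.4%). Of the 7 upstream regulators tested 1 rose and 2 fell, a share near that of all genes, among them the KIBRA-family genes Wwc2 (0.56) and Wwc1 (-0.44). The call of Wwc2 was lost without MRTFA replicate 2 (0.52), and that of Wwc1 without MRTFA replicate 2 (-0.44) or 3 (-0.41) or control replicate 2 (-0.32). Wwc1 also lost its call without replicate 3 in every group (-0.41, limma adjusted p = 0.0986). In the 3 other comparisons with control 0 genes of either list were called by limma or edgeR, where limma called 1.55% of all genes (MRTFA in B16F10), 0.126% (MRTFB in B16F10) and 0.144% (MRTFB in E0771). At an unadjusted p under 0.05 there were 1 of 10 targets and 1 of 24 components with MRTFA in B16F10 (9.41% of all genes), 2 and 3 with MRTFB in B16F10 (8.87%), and 2 of 11 and 1 of 22 with MRTFB in E0771 (2.54%). In the controls of the lines, 21 of 24 components differed, 8 higher and 13 lower in E0771, beside 70.2% of all genes, 33.4% higher and 36.8% lower.

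**Figure D4:**
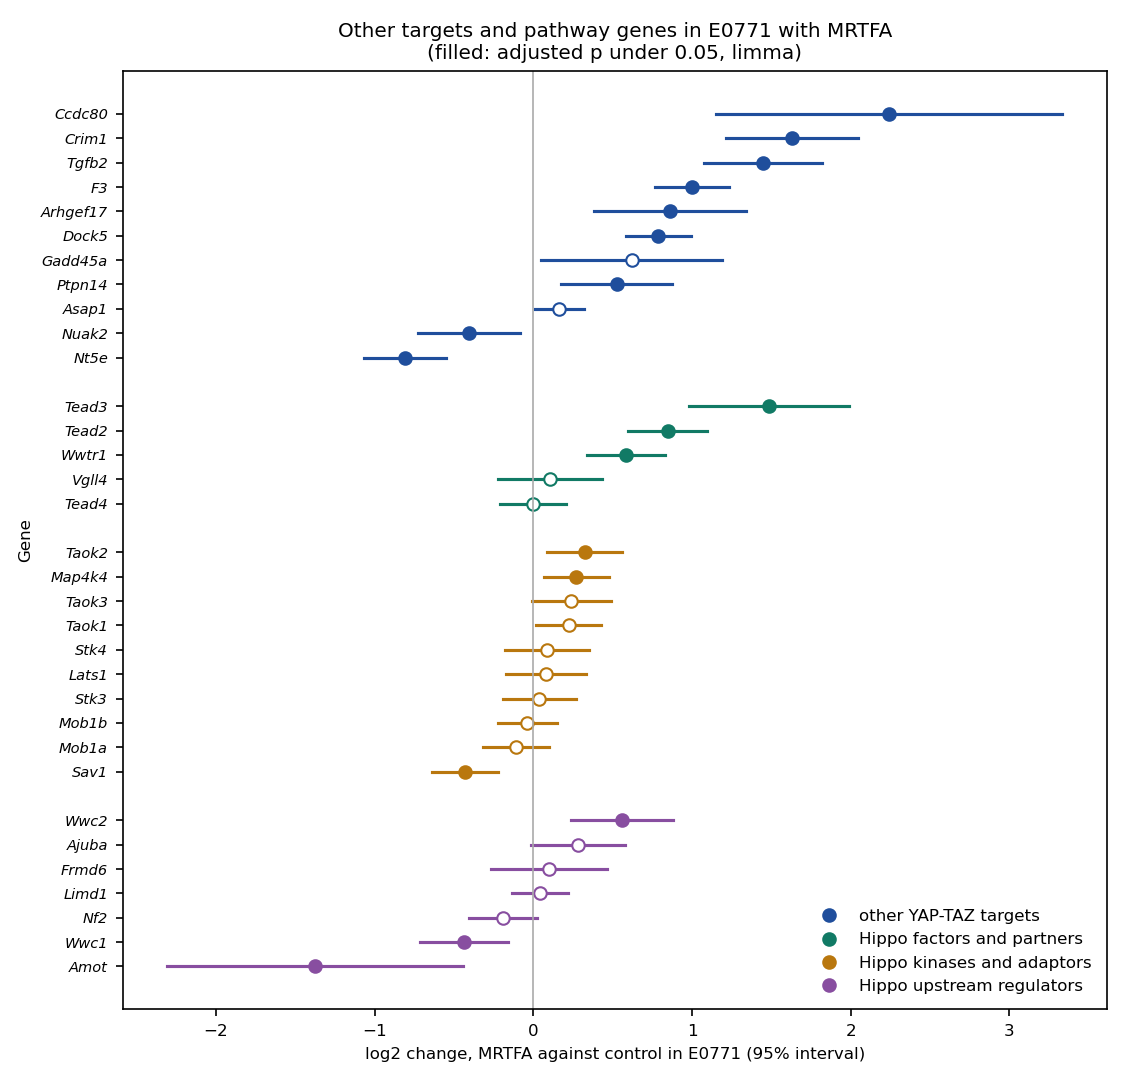
Log2 change with MRTFA in E0771 (points, with 95% intervals) for further YAP-TAZ targets and Hippo components, by role; filled points had a limma adjusted p under 0.05. Targets lie mostly to the right of 0, the TEAD genes Tead3 and Tead2 and Wwtr1 at 0.58 to 1.48, and most kinases and adaptors close to 0.

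The genes with the pattern most like each leading target were found by the smallest root mean square difference in log2 change from the line's control mean, over the 12 libraries with a factor and 10759 genes. For Cyr61 these included Lpp (0.28) and Rnd3 (0.32). For Ctgf they were Csdc2 (0.61), Lincenc1 (0.71) and Aloxe3 (0.78), and for Ankrd1 they were Tnc (0.76), Jph2 (0.97) and Hopx (1.02). These values describe the 12 libraries, which share their controls.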

How the data were processed

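RNA-seq of 18 libraries (6 groups of 3) was analysed from 1 table. Per the submitters' processing notes it was made with cutadapt 1.6, STAR 2.5.0a, HTSeq 0.5.3 and DESeq on mm10; the sources used here do not give the counting mode, strand setting or annotation. The deposited values are a signal, reads divided by a size factor by the authors; whole reads were recovered from them (100% of values within 0.001 of a whole number). Within groups libraries differed by far more than sampling noise (chi-square per degree of freedom 11.7 to 59.2), so none was counted once for a pair. All 10 symbols matched GENCODE M21 (18827 of 18909 identifiers did), which gave coordinates and exon lengths.

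The main test was limma 3.58.1 (trend) in R 4.3.3 on log2(value + 1), two-sided, for genes with a value of 10 in at least 3 fitted libraries: 9 libraries of 1 line, or all 18 where both lines enter. Fold changes are on that scale and understate low genes. Called means a Benjamini-Hochberg adjusted p under 0.05 over all genes tested. edgeR 4.0.16 and DESeq2 1.42.0 on the recovered reads, scalings, filters, the length of the longest transcript, a replicate block and leaving out libraries were alternatives. On simulated data with MRTFA against control in E0771 (12931 genes), 63.3% of 98 genes changed by 1 and 96.0% of 100 genes changed by 2 (log2) were called. Of the unchanged genes 14 were called. Genes were drawn independently and without a replicate effect, so these rates need not hold for the real libraries. Replicate numbers were taken to pair libraries where the correlation of same-numbered deviations passed 0.1 in all 3 pairs: it was 0.375 to 0.644 over the B16F10 comparisons, 0.525 to 0.588 for MRTFB and control in E0771 and 0.124 to 0.473 for MRTFB and MRTFA there, but 0.079 to 0.522 for MRTFA and control. Between the controls of the 2 lines the same correlation was 0.085 to 0.190, and the labels do not say what a number marks. Named list genes are the first 6 called by adjusted p with MRTFA in E0771, and any called in another comparison with control. Genes of most like pattern are the first 3 for each leading target, of which 1 is not reported here. The genes, lists and rules were chosen with earlier results of these data known.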

Additional observations from a re-analysis of the deposited data

Results flagged for a closer look

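The change with MRTFA differed between E0771 and B16F10 by a test of the difference itself (limma adjusted p under 0.05) for 13 of the genes named above, beside 21.1% of all genes. The further targets and components were named because they were called with MRTFA in E0771, so their differences are descriptions and no independent test. Among the 10 genes these were Ctgf (2.98 larger in E0771 on the log2 scale), Tead1 (1.15) and Amotl1 (0.58). Among further targets they were Ccdc80 (2.43), Tgfb2 (1.79), Crim1 (1.46), F3 (1.15) and Dock5 (0.71). Of the Hippo components Tead2 (0.91) and Wwtr1 (0.60) had the higher log2 change in E0771, and Wwc1 (-0.46) and Sav1 (-0.40) the lower. Wwc1 and Sav1 were at 0.73 and 0.74 times control in E0771 and at 1.02 and 0.98 times control in B16F10 (ratios of means). The introduced gene Mkl1 differed too, by 3.12.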

How the results depend on the processing

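The 8 calls in E0771 with MRTFA, and the 8 between MRTFB and MRTFA there, kept their direction and side of the threshold under every alternative run. Depth limits Ankrd1 in the B16F10 controls, and 3 libraries a group limit the rest; where 2 libraries are left in an arm, the spread is shared with the other groups.

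Counts of all genes called moved by over 1.5 times in these cases. With a minimum of 50 they were 107 (MRTFA in B16F10; 209 in the main test), 5 (MRTFB in B16F10; 17) and 71 (MRTFB against MRTFA in B16F10; 148), and with no filter 324 and 260 for the first and last. TMM scaling gave 6 for MRTFB in B16F10, and a pseudocount of 10 gave 32 for the MRTFB line difference (17). DESeq2 gave 357 and 179 for MRTFA and MRTFB in B16F10, 51 for MRTFB in E0771 (19) and 41 for the MRTFB line difference, with 1 and 2 of the 10 genes for MRTFB in B16F10 and E0771; edgeR gave 0 of the 10 for MRTFB in E0771. With the replicate block, all genes called were 855, 603 and 359 in B16F10 (MRTFA, MRTFB, MRTFB against MRTFA), 33 for MRTFB in E0771, and 5165 and 81 for the MRTFA and MRTFB line differences, with 5, 2, 3, 2, 7 and 1 of the 10 genes in that order. For MRTFA in E0771, whose numbers did not pass the pairing check, the block added Yap1 (adjusted p = 0.00135); for the MRTFA line difference it added Cyr61 (1.38), Ankrd1 (-2.32), Myof (-0.57) and Yap1 (-0.41); for the controls of the lines, with the number shared by both, it added Tead1 (0.0214). For MRTFB against MRTFA in E0771 the block changed none of the 10 calls. Without replicate 3 in every group (added after seeing the data) all genes called were 224 and 84 for MRTFB and MRTFB against MRTFA in B16F10, 10 for MRTFB in E0771 and 52 for the MRTFB line difference. The 10 genes then gave 4 (MRTFA), 2 (MRTFB) and 3 (MRTFB against MRTFA) in B16F10, 0 for MRTFB in E0771, and 7 and 1 for the line differences.

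Leaving out 1 library at a time, all genes called ranged from 37 to 324, 0 to 129 and 10 to 213 for MRTFA, MRTFB and MRTFB against MRTFA in B16F10, with 0 to 2, 0 to 0 and 0 to 1 of the 10 genes. In E0771 the ranges were 3260 to 4621, 7 to 15 and 2571 to 4392, with 8 to 8, 0 to 1 and 8 to 8. For the MRTFA and MRTFB line differences they were 2171 to 3040 and 2 to 47, with 3 to 4 and 0 to 0, and for the controls 9775 to 10005, with 7 to 7. The further targets ranged from 7 to 9 and the Hippo components from 5 to 8 for MRTFA in E0771. Scaled reads per kb of the longest transcript moved by more than the SD in the B16F10 controls for Amotl2 (531), Myof (416), Lats2 (573), Yap1 (1338) and Tead1 (595), and in the E0771 controls for Ctgf (413), Ankrd1 (109), Amotl1 (480), Amotl2 (785), Axl (5593), Myof (1935), Lats2 (473), Yap1 (3053) and Tead1 (698).

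Some uncalled values near 0 changed sign when 1 library was left out. With MRTFA these were Amotl1 (-0.022 to 0.21), Myof (-0.57 to 0.11) and Yap1 (-0.052 to 0.062) in B16F10 and Axl (-0.032 to 0.20) in E0771. With MRTFB in E0771 they were Amotl1 (-0.0012 to 0.098), Amotl2 (-0.031 to 0.14; -0.057 without replicate 3 in every group), Axl (-0.22 to 0.077), Lats2 (-0.098 to 0.13; -0.029 likewise) and Mkl1 (-0.18 to 0.17; 0.013 by edgeR and 0.015 by DESeq2). Between the controls they were Ctgf (-0.69 to 0.18; 0.14 without replicate 3), Lats2 (-0.44 to 0.017) and Mkl2 (-0.24 to 0.032). Apart from effects built into an alternative, the cause of these changes was not tested.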
